A study of Mus musculus with 16 samples.

Results

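The nuclear genes of the respiratory chain were followed across sorted mouse bone marrow cells. They were chosen by gene symbol alone: the Ndufa, Ndufb, Ndufc, Ndufs and Ndufv genes, the Uqcr genes, Cox4 to Cox8, the Atp5 genes, Sdha, Sdhb, Sdhc, Sdhd and Cyc1. The rule found 91 of the 18194 genes with an unambiguous probe set on the array, represented by 180 probe sets. They fall into 34 subunits of complex I, 8 assembly factors of complex I (Ndufaf1 to Ndufaf8), 4 subunits of complex II, 9 of complex III, 19 of complex IV and 17 of complex V. Ndufa4 and its paralog Ndufa4l2 carry complex I names and were counted with complex IV, where the Ndufa4 protein is now placed. No measured value entered the choice of genes.

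RNA of directly sorted cells, 4000 to 7000 per sample, was measured on 16 Affymetrix arrays in 6 groups. The groups comprised 2 arrays of Ly6D-positive common lymphoid progenitors (CLP) and 2 of Ly6D-negative CLP, both from wild-type mice aged 8 to 12 weeks, and 4 groups of hematopoietic stem cells (HSC) with 3 arrays each. The HSC came from mutator mice (Polgtm1Lrsn-/-, 32 weeks), mid-aged wild-type mice (Polgtm1Lrsn+/+, 32 weeks), old wild-type mice of 24 months and young wild-type mice of 9 to 12 weeks. All animals were labelled female and C57Bl6, and replicates were labelled biological. CLP are bone marrow progenitors committed to the lymphoid lineages, and expression of the surface protein Ly6D marks those that lean to the B lineage. Mutator mice carry in every cell a mitochondrial DNA polymerase without proofreading and accumulate mutations in mitochondrial DNA. The design asked how HSC of mid-aged mutator and wild-type mice compare with those of young and old mice.

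The respiratory chain sits in the inner mitochondrial membrane. Complexes I and II pass electrons from NADH and succinate to ubiquinone, complex III passes them to cytochrome c and complex IV to oxygen, while complexes I, III and IV pump protons that drive ATP synthesis by complex V. Subunits of complexes I, III, IV and V are encoded partly in mitochondrial DNA and partly in the nucleus, whereas all subunits of complex II are nuclear. As background, quiescent HSC are known to rely largely on glycolysis and to raise mitochondrial respiration when they differentiate.

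Nuclear respiratory genes lie apart from each other in the genome and are known to share binding sites for the factors NRF1, GABPA (NRF2), YY1 and ESRRA in their promoters. RefSeq windows (GRCm38.p6) of 250 bases before to 50 after the gene start were found for 74 of the 91 genes and searched on both strands. The letters GCGCATGCG (NRF1) were found in 9 of them (12.2%), against 3.10% of the 14369 genes on the array with a window. AAGATGGCG (YY1) was found in 7 (9.46%, against 2.54%), AAGGTCA (ESRRA) in 8 (10.8%, against 4.61%) and CCGGAAGT (GABPA) in 5 (6.76%, against 6.65%). At least one of these letter strings stood in 26 windows (35.1%, against 15.8%). The 5 windows printed here belong to genes whose levels set the groups apart in the comparisons that follow, and they were picked with those levels known. They are written from 5′ to 3′ on the strand of the gene, with matched letters in capitals.
Cox6a1 (chr5:115348909-115349208, minus strand): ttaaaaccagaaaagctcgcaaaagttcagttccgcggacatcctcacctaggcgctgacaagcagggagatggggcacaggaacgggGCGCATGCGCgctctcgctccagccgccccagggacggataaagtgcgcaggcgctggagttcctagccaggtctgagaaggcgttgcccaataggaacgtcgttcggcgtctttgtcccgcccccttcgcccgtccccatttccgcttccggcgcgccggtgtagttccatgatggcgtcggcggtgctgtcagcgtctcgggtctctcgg
Ndufs7 (chr10:80249199-80249498, plus strand): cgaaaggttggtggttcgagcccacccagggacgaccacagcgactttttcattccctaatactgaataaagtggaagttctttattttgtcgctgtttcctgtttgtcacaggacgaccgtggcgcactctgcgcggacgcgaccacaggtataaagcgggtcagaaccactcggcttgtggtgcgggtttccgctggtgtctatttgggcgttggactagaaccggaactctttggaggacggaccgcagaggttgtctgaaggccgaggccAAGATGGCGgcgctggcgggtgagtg
Atp5k (chr5:108434350-108434649, minus strand): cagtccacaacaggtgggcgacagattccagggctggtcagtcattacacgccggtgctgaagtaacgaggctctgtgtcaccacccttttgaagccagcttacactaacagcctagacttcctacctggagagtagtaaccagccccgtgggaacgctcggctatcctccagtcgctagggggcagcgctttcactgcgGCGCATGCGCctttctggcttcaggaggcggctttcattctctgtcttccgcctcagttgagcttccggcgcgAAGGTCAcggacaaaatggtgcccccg
Atp5g2 (chr15:102670998-102671297, minus strand): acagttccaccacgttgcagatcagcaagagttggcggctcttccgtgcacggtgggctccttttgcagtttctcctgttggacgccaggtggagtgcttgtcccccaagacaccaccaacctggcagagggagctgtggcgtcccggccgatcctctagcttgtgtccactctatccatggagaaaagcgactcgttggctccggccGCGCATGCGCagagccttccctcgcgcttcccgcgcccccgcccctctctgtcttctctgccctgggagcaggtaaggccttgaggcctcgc
Atp5g3 (chr2:73911277-73911576, minus strand): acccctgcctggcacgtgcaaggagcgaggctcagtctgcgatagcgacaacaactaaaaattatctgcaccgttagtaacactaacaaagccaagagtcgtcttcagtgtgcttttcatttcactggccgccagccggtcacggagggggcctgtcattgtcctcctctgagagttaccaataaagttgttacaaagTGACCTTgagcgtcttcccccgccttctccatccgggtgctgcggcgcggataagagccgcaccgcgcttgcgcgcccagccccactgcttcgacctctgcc
The NRF1 letters began 162 bases before the start of Cox6a1, 50 before that of Atp5k and 42 before that of Atp5g2. In each the string reads almost the same on both strands, so overlapping matches were found on both. The YY1 letters lay 25 bases inside Ndufs7, the ESRRA letters 24 bases inside Atp5k and, on the opposite strand, 52 bases before Atp5g3. A match of letters is a description of the window and not a measured binding site.

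Several arrays stood apart, and results that rest on them are given with and without them. Polg, the gene altered in mutator mice, read 65.9, 125 and 110 intensity units in mutator HSC, against 113, 163 and 153 in mid-aged wild-type HSC, and the groups overlapped. The altered allele is still transcribed, so this level does not check the label. Array 3 of mid-aged wild-type HSC and all 4 CLP arrays had Xist between 9.12 and 16.8 and the Y-linked Eif2s3y between 423 and 758, although labelled female, while the other arrays had Xist of 3507 or more. The 6 arrays of 32-week mice had 3′ over 5′ log2 ratios of actin between 4.20 and 5.19, compared with 2.19 to 2.25 on old arrays and 2.37 to 2.60 on young arrays, a sign of shorter transcripts in the labelled RNA. Hybridisation controls were high on the CLP arrays, on mutator array 1 and on mid-aged wild-type array 1. Arrays 2 and 3 of young HSC resembled each other more (r = 0.996) than any other pair of replicates. Stem cell markers were present in all HSC groups, and all 8 measured fell in either kind of CLP relative to young HSC. Of 11 lymphoid markers, 11 rose in Ly6D-positive CLP and 6 in Ly6D-negative CLP, Ly6d itself among the 11.

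The respiratory genes were well measured: 85 of the 91 lay above the 40th percentile of the array on all 16 arrays. Values are probe set intensities, and changes are differences of log2(intensity + 16) with the standard error (SE) of the limma fit. A gene is said to have risen or fallen when its p adjusted over all genes tested was under 0.05. The HSC comparisons tested 13482 genes, 87 of them respiratory, and the CLP comparisons 14344 genes, 88 of them respiratory. Ndufb4, Cox7a1 and Cox7b2 were too dim to be tested in either and Cox4i2 in the HSC comparisons. Cox7b2 stayed between 7.04 and 12.6 units over all 16 arrays. Fewer transcripts per cell and fewer cells of a kind within a sort cannot be told apart in such bulk samples.

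**Figure D1:**
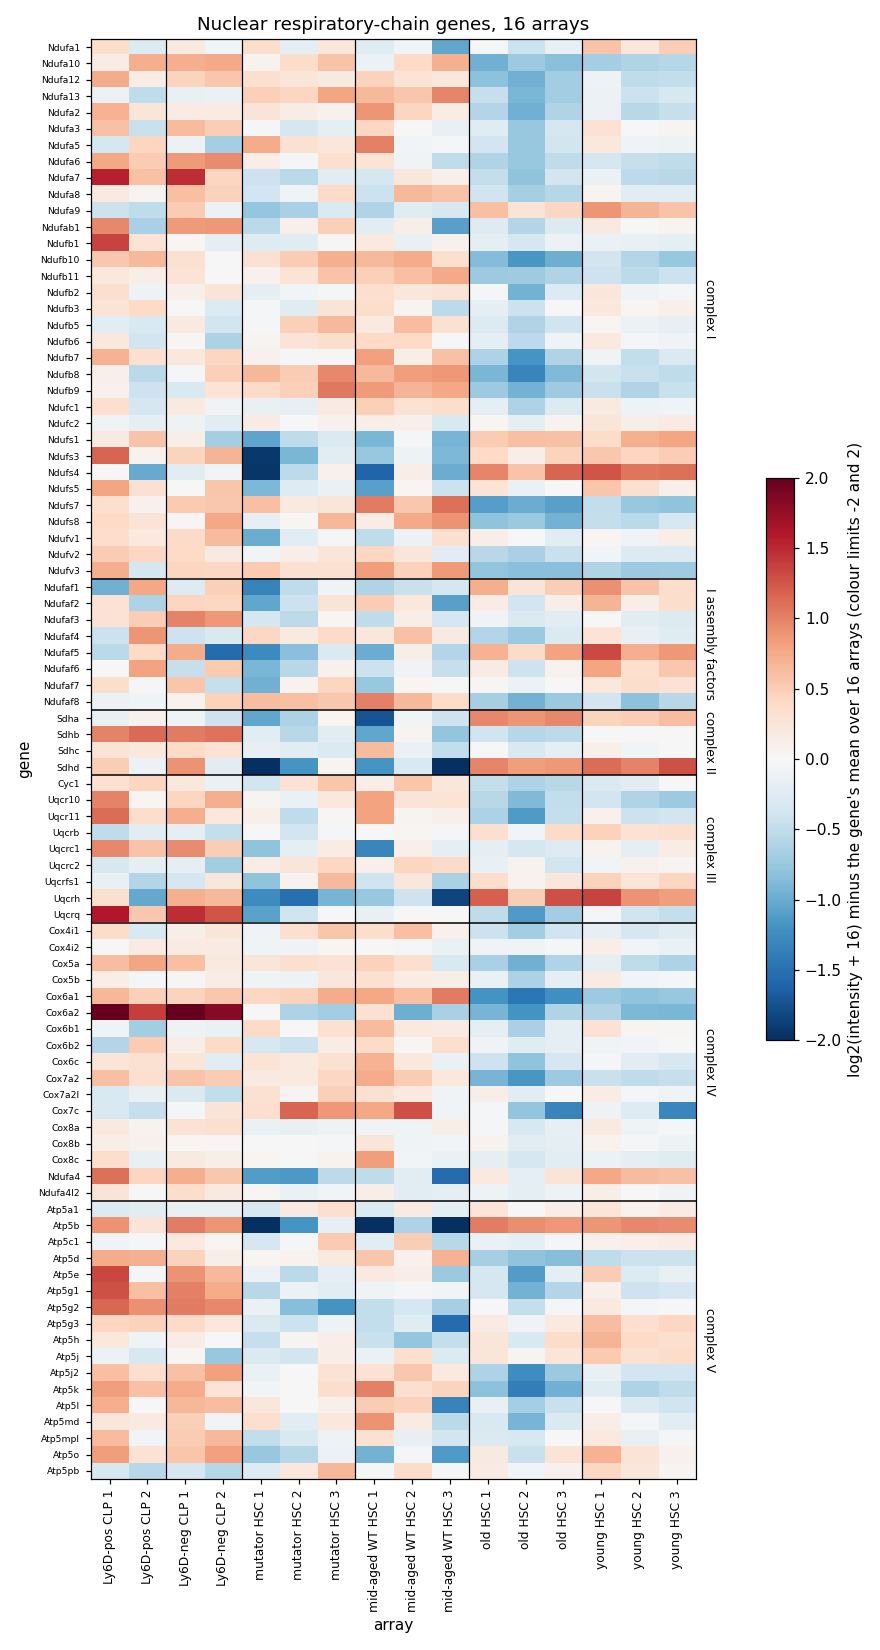
Level of each of the 88 tested respiratory genes (rows, by complex) on each of the 16 arrays (columns), as log2(intensity + 16) minus the gene's mean over the arrays; red is higher and blue lower, with colours limited at -2 and 2. Old HSC are pale to mid blue in most rows outside complex II, while Cox6a2 is dark red on the 4 CLP arrays alone and Sdhd and Atp5b are blue on most 32-week arrays.

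The complexes differed in how their median level ran over the groups. The measure is the median, over the genes of a complex, of each gene's log2 deviation from its mean over 16 arrays. For complex I it lay between 0.0862 and 0.334 in Ly6D-positive and 0.191 and 0.259 in Ly6D-negative CLP. In HSC it lay between -0.0169 and 0.231 for mutator, 0.154 and 0.338 for mid-aged wild-type, -0.707 and -0.368 for old, and -0.182 and 0.0417 for young mice. Old HSC were lowest for complexes I, III, IV and V by the mean of their arrays. For complex II the mutator and mid-aged wild-type HSC were lowest instead. It lay between -0.629 and -0.0832 in mutator HSC and between -1.11 and -0.0910 in mid-aged wild-type HSC. The old HSC, between 0.261 and 0.473, overlapped with the young HSC, between 0.247 and 0.316. The median change of the complex II genes in old against young HSC was nevertheless -0.21, with 3 of 4 below 0. For complexes III, IV and V both CLP groups were highest by their means. In complex V they ran from 0.185 to 0.628 in Ly6D-positive and from 0.274 to 0.503 in Ly6D-negative CLP. In complex III they ran from 0.0391 to 0.320 and from 0.219 to 0.437. In complex IV they ran from 0.0823 to 0.242 and from 0.187 to 0.196, within the range of mid-aged wild-type HSC (-0.0652 to 0.349). No test was made of these medians.

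**Figure D2:**
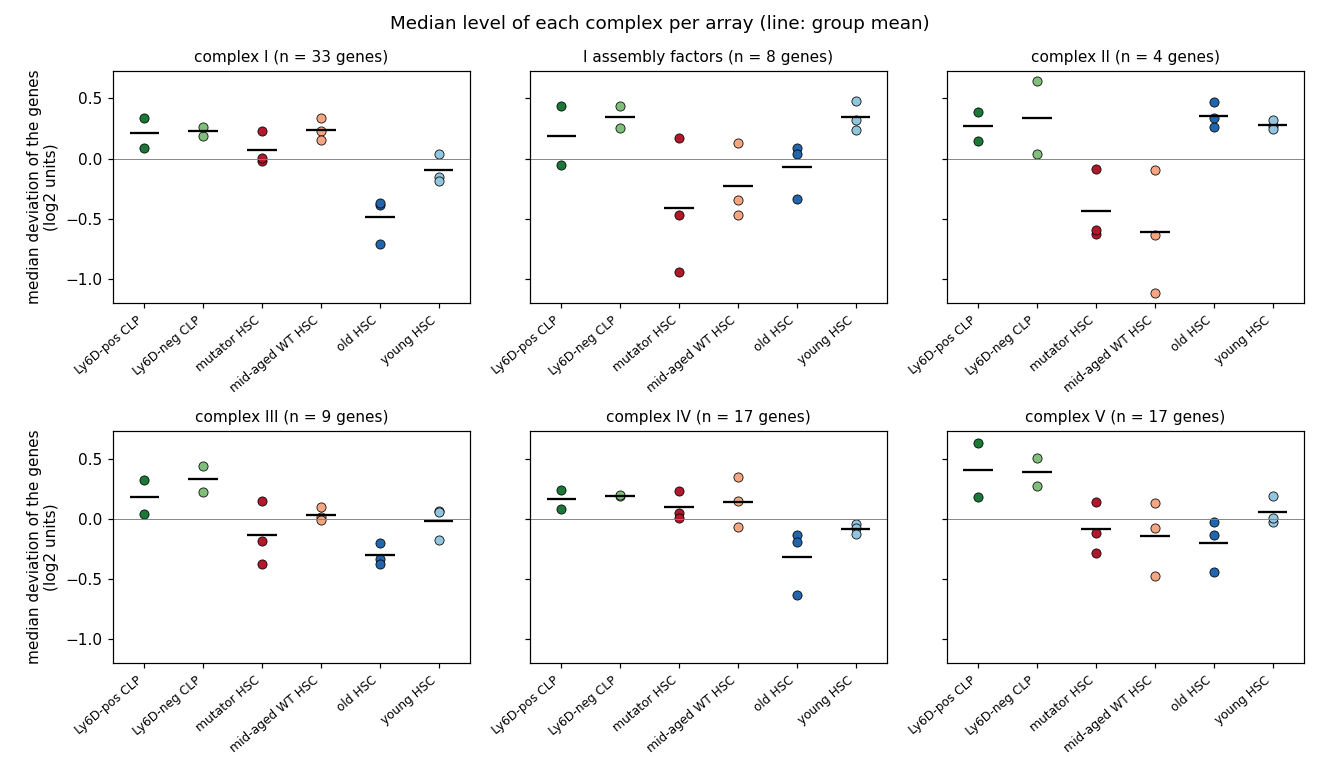
Median log2 deviation of the genes of each complex on each array (points) with the mean of the group (line), for the 6 groups from Ly6D-positive CLP to young HSC. Old HSC lie between -0.707 and -0.368 for complex I, below every other array, and the 32-week HSC are lowest for complex II.

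Old HSC were compared with young HSC to see how the respiratory genes differ with age. No respiratory gene passed the test, in either direction (limma, 0 of 87), and of all genes tested 1.05% rose and 0.252% fell, 1.31% together. The direction was nevertheless nearly uniform: 85 of the 87 genes had a change below 0, compared with 51.8% of all genes, with a median of -0.30 against -0.01 over all genes. Among the 87, 16 had an unadjusted p under 0.05, compared with 9.03% of all genes. In 48 of the 87 every old array lay below every young array, which held for 13.2% of all genes, and in 1 (Sdha) every old array lay above, which held for 14.0%. The shift was modest for each gene, and by complex the medians were -0.34 for complex I (33 of 33 below 0), -0.33 for its assembly factors (8 of 8), -0.21 for complex II (3 of 4), -0.18 for complex III (9 of 9), -0.23 for complex IV (16 of 16) and -0.32 for complex V (16 of 17).

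The lowest p in complex I belonged to Ndufb8, an accessory subunit of the membrane arm. Its intensity was 621, 465 and 641 in old HSC, against 921, 869 and 832 in young HSC, without overlap (-0.60 ± 0.167, adjusted p = 0.149). The other measured probe set of Ndufb8 stood at -0.12. Ndufa12, an accessory subunit of the matrix arm, read 1312, 1191 and 1426 in old HSC, against 2157, 1627 and 1652 in young HSC, again without overlap (-0.46 ± 0.151, adjusted p = 0.255). The 6 measured core subunits had a median of -0.25 (from -0.38 to -0.06, 3 separate) and the 27 accessory subunits one of -0.34 (20 separate), a difference that was not tested. Among the core subunits Ndufs7, next to the quinone site, was at -0.37 ± 0.182 with separate groups. Ndufs1, which carries iron-sulfur clusters, was at -0.06 ± 0.259, and Ndufv1, the flavin subunit that oxidises NADH, at -0.08 ± 0.259, and these 2 overlapped between the groups. The 18 tested membrane-arm subunits had a median of -0.35, with 15 separate between old and young HSC, and the 14 of the matrix arm -0.27, with 7 separate.

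In complex IV the lowest p was that of Cox6a1, the subunit VIa form of most tissues. It read 2028, 1699 and 1999 in old HSC, against 2805, 2678 and 2762 in young HSC (-0.53 ± 0.155, adjusted p = 0.182), so all old arrays were lower. Cox4i1 and Cox5a, which lie close to the catalytic core, were at -0.26 ± 0.190 and -0.30 ± 0.206. In complex III, cytochrome c1 (Cyc1) was at -0.37 ± 0.217 with separate groups, and the Rieske protein Uqcrfs1 at -0.17 ± 0.320 with overlap. The catalytic F1 subunits of complex V were close to 0: Atp5a1 was at -0.03 ± 0.186 and Atp5b at 0.00 ± 0.520. The 3 genes of the identical mature c subunit, Atp5g1, Atp5g2 and Atp5g3, were each below 0, from -0.41 to -0.23.

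In complex II, 3 of the 4 genes were below 0 and 1 above. Sdha, the flavin subunit, read 4313, 4084 and 4320 in old HSC, against 3011, 3130 and 3400 in young HSC, so that all old arrays were higher (0.41 ± 0.373, adjusted p = 0.9996). Its 3 measured probe sets did not share that sign and ran from -0.07 to 0.41. Sdhb, the iron-sulfur subunit, read 674, 594 and 617 in old HSC, against 886, 889 and 902 in young HSC (-0.50 ± 0.235, adjusted p = 0.598). The membrane anchors Sdhc and Sdhd were at -0.19 ± 0.233 and -0.24 ± 0.531.

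These p-values share a spread estimated over all 12 HSC arrays, and the 32-week arrays vary most. When only the 6 old and young arrays were fitted, Sdha rose (adjusted p = 0.0375) and 5 genes fell: Sdhb (0.0187), Cox6a1 (0.0224), Ndufb8 (0.0376), Ndufa1 (0.0387) and Ndufa4 (0.0454). In that fit 4.71% of all genes rose and 2.66% fell. Without old array 2 and young array 1, which lay at the ends, 71 of 87 genes were below 0 with a median of -0.12. Other features moved with the groups. The actin 3′ over 5′ log2 ratio was 2.19 to 2.25 in old and 2.37 to 2.60 in young HSC, and that of Gapdh 2.91 to 2.94 in old and 3.12 to 3.29 in young HSC. The summed intensity of 12 measured cycling markers was 10220 to 12792 in old HSC, against 17110 to 22753 in young HSC, and 1 of them (Mcm5) fell. The summed level of 8 measured neutrophil markers was 157 to 1434 in old HSC, against 1120 to 5521 in young HSC, with Mmp8 at background in both. The 9 measured macrophage markers summed to 225 to 284 in old HSC, against 371 to 856 in young HSC, and C1qa, C1qb, C1qc and Mrc1 were at background in old HSC. One macrophage marker, Vcam1, fell (-2.19). The 8 measured stem cell markers were all above 0 and summed to 17553 to 21965 in old HSC, against 13696 to 15499 in young HSC, and Hoxb5 (1.03), Procr (0.78) and Slamf1 (1.07) rose. The part of these in the shift of the respiratory genes was not tested.

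**Figure D3:**
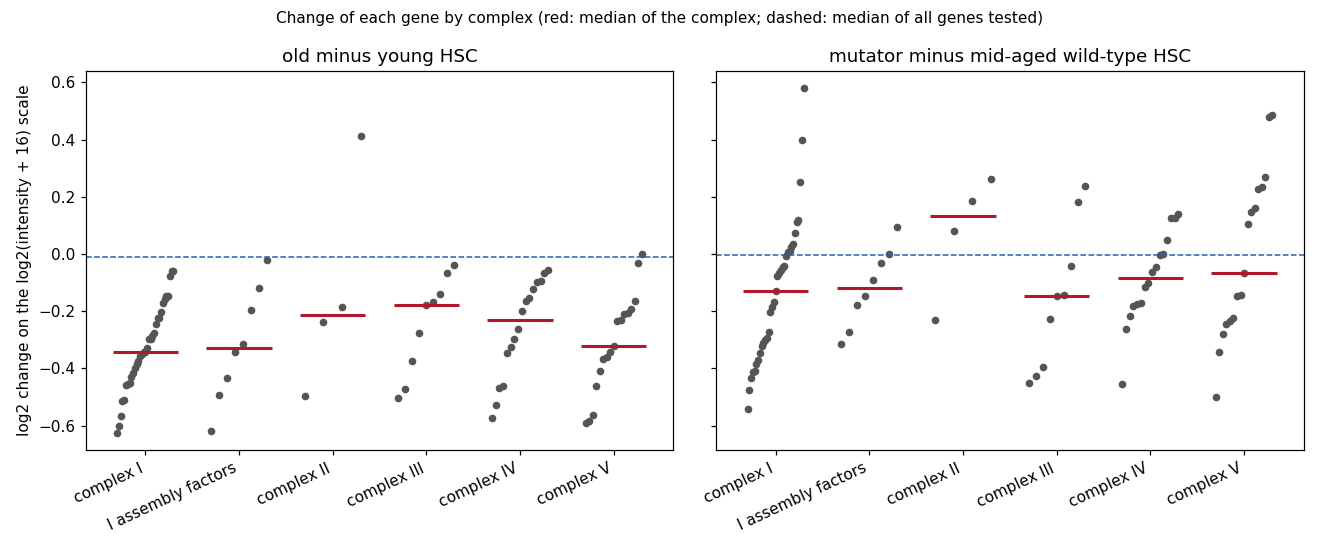
Log2 change of each tested respiratory gene (points, sorted within a complex) in old against young HSC (left) and mutator against mid-aged wild-type HSC (right), with the median of the complex (red) and of all genes (dashed). In old HSC 85 of 87 points lie below 0, and in mutator HSC 58 of 87.

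Mutator HSC were set against mid-aged wild-type HSC of the same age to see what mutations in mitochondrial DNA go with. No gene of the array passed the test here (0 of 13482, or 0.00% in limma), respiratory or other. That count depended on array 2 of mid-aged wild-type HSC: without it 1.55% of all genes rose and 0.0964% fell, none of them respiratory. In the fit of all arrays 7.30% of all genes and 8 of the 87 respiratory genes had an unadjusted p under 0.05. Of the 87, 58 were below 0, against 50.7% of all genes, with a median of -0.10. Mutator arrays all lay below wild-type arrays in 6 genes and above in 0, which held for 2.97% and 3.11% of all genes. By complex, the medians were -0.13 for complex I, -0.12 for its assembly factors, 0.13 for complex II, -0.15 for complex III, -0.08 for complex IV and -0.07 for complex V.

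The genes of lowest p are given as values only. Ndufs7, a core iron-sulfur subunit next to the quinone site of complex I, read 2709, 2042 and 2111 in mutator HSC, against 3661, 2587 and 3840 in mid-aged wild-type HSC, and 1 array overlapped (-0.54 ± 0.182, adjusted p = 0.607). Ndufc1, of the membrane arm, read 873, 864 and 1088 in mutator HSC, against 1344, 1179 and 1231 in wild-type HSC, without overlap (-0.41 ± 0.162, adjusted p = 0.636). The dim Cox6b2, a form of subunit VIb known from testis, was at -0.45 ± 0.169 (adjusted p = 0.622). In the other direction stood Ndufa1 (0.58 ± 0.249), the stalk subunit Atp5h (0.48 ± 0.217) and Atp5g3 (0.48 ± 0.274), with adjusted p between 0.663 and 0.770. The 4 genes of complex II were at 0.19 ± 0.372 (Sdha), 0.26 ± 0.235 (Sdhb), -0.23 ± 0.233 (Sdhc) and 0.08 ± 0.531 (Sdhd), and each overlapped. None of the core subunits passed either: Ndufs1 was at 0.01 ± 0.259, Ndufv1 at -0.31 ± 0.259, Cyc1 at -0.15 ± 0.217, Uqcrfs1 at 0.24 ± 0.320, Cox4i1 at -0.06 ± 0.190, Cox5a at 0.13 ± 0.206, Atp5a1 at 0.16 ± 0.186 and Atp5b at 0.27 ± 0.520. Without array 3 of mid-aged wild-type HSC, the one at odds with its label, 69 of 87 genes were below 0 with a median of -0.18. Without the pair of 32-week arrays with high hybridisation controls 43 were below 0 and the median was 0.02, so the small downward shift depended on which arrays were used.

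The difference between these effects, that of the mutator genotype minus that of age, was tested as a single contrast. No respiratory gene passed it (0 of 87), compared with 0.0519% of all genes in the upper and 0.460% in the lower direction, or 0.512% together. The contrast was above 0 in 67 of the 87 (50.6% of all genes), with a median of 0.20, and 5 of the 87 had an unadjusted p under 0.05, compared with 7.74% of all genes. The lowest p was that of Ndufa1, a small membrane-arm subunit. It read 3965, 2748 and 3640 in mutator HSC, against 2614, 2996 and 1503 in mid-aged wild-type HSC, and 3061, 2301 and 2797 in old HSC, against 4621, 3618 and 4347 in young HSC. The difference of the effects was 1.21 ± 0.353 (adjusted p = 0.281). Next were Atp5h (0.84 ± 0.307) and Sdhb (0.76 ± 0.333), and on the other side Cox6b2 (-0.33 ± 0.239), Uqcr10 (-0.33 ± 0.268) and Ndufv3 (-0.20 ± 0.204). Without array 2 of mid-aged wild-type HSC, Sdhb alone passed.

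Mid-aged wild-type HSC differed far more from young HSC than old HSC did, in both directions. Of the 87 respiratory genes 20 rose and 16 fell, compared with 6.42% and 17.7% of all genes. An unadjusted p under 0.05 was found in 45 of them, compared with 36.3% of all genes. Changes were above 0 in 48 (46.9% of all genes) and below 0 in 39 (53.1%), with a median of 0.16. The genes that rose were mostly subunits of complex I (12 of 33), with 3 of 16 in complex IV, 3 of 17 in complex V and 1 each in complex III and the assembly factors. Those that fell were 5 in complex I, 3 assembly factors, 2 of the 4 of complex II, 1 in complex III, 1 in complex IV and 4 in complex V. This comparison runs along with the 3′ over 5′ ratio named above, 4.20 to 5.19 for actin in 32-week arrays and 2.37 to 2.60 in young arrays. Stem cell markers summed to 8262 to 11082 in mid-aged wild-type HSC, against 13696 to 15499 in young HSC, with 3 of 8 fallen (Kit, Mecom and Meis1). Macrophage markers summed to 218 to 295 in mid-aged wild-type HSC, against 371 to 856 in young HSC, with 2 of 9 fallen (Cd5l and Vcam1) and C1qc and Mrc1 at background. Of 12 cycling markers 3 fell (Mcm3, Pcna and Rrm2), with sums of 10799 to 17577 in mid-aged wild-type HSC, against 17110 to 22753 in young HSC. Of 5 red cell markers 1 fell (Slc4a1). The part of these in the changes of the respiratory genes was not tested. Only 20 of the 49 genes with several measured probe sets kept one sign over them, so the values describe the probe set used.

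Ndufs7 rose by the largest amount. Mid-aged wild-type HSC had 3661, 2587 and 3840 units, against 1263, 1048 and 1007 in young HSC (1.58 ± 0.182, adjusted p = 0.000345), and its second probe set stood at 0.46. Cox6a1 read 7989, 7113 and 9606 in mid-aged wild-type HSC, against 2805, 2678 and 2762 in young HSC (1.57 ± 0.155, adjusted p = 0.000193). Both genes were far above the young arrays on every 32-week array. Ndufv3, an accessory subunit of the matrix arm, rose by 1.39 ± 0.145, Ndufb9 by 1.27 ± 0.179, Ndufb8 by 1.22 ± 0.167 and the assembly factor Ndufaf8 by 1.26 ± 0.180. Other probe sets of Ndufb8, Ndufb9 and Ndufaf8 had the other sign. In complexes III to V the rises were those of Uqcr10 (1.01 ± 0.190), Cox7a2 (0.96 ± 0.168), Cox4i1 (0.59 ± 0.190), Atp5k (1.05 ± 0.216), Atp5d (0.89 ± 0.162) and Atp5j2 (0.64 ± 0.192). The other probe set of Atp5d stood at -0.41. Among the genes that rose and have several measured probe sets, 8 of 15 kept one sign over them.

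Atp5b, the catalytic beta subunit of ATP synthase, fell most. It read 593, 1703 and 647 in mid-aged wild-type HSC, against 4893, 5160 and 5087 in young HSC (-2.51 ± 0.520, adjusted p = 0.00564). The mutator arrays, with 419, 1158 and 2360, were as low, so low values marked the 32-week arrays of both genotypes. Sdhd read 167, 320 and 75.1 in mid-aged wild-type HSC, against 881, 815 and 991 in young HSC (-2.36 ± 0.531, adjusted p = 0.00854), while its other probe set stood at -0.10. The hinge protein gene Uqcrh fell by 2.04 on the log2 scale (SE 0.344), with a second probe set at -1.05. Ndufs4, a matrix-arm subunit, fell by 1.96 (SE 0.490), but its 4 probe sets ran from -1.96 to 0.60. Sdha fell by 1.25 (SE 0.372), and its 3 probe sets ran from -1.25 to 0.29. Further falls were those of Ndufs1 (-1.25 ± 0.259), Ndufa9 (-1.10 ± 0.172), Ndufs3 (-1.07 ± 0.354), the assembly factors Ndufaf5 (-1.45 ± 0.307), Ndufaf1 (-1.07 ± 0.281) and Ndufaf6 (-0.88 ± 0.255), Ndufa4 (-1.41 ± 0.304), Atp5g3 (-1.22 ± 0.274), Atp5o (-1.06 ± 0.306) and Atp5h (-1.03 ± 0.217). The other probe set of Atp5o stood at 0.21. Among the genes that fell and have several measured probe sets, 3 of 6 kept one sign over them. Of the 20 genes that rose 17 kept the call whichever array was left out, and of the 16 that fell 10 did. Without array 3 of mid-aged wild-type HSC the counts were 24 and 12, compared with 4.71% and 14.0% of all genes in that fit. When the probe sets of each gene were averaged they were 13 and 15, compared with 4.67% and 15.4%.

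Ly6D-positive and Ly6D-negative CLP did not differ in any respiratory gene that passed the test (0 of 88), while 1.49% of all genes were higher and 1.19% lower, 2.68% together. With 2 arrays a group the intervals are wide, and 6 of the 88 had an unadjusted p under 0.05, compared with 13.0% of all genes. The lowest p belonged to Ndufb1, a small membrane-arm subunit, with 78.8 and 28.8 units in Ly6D-positive CLP, against 21.8 and 16.4 in Ly6D-negative CLP (adjusted p = 0.117). The Ly6D-negative values lay close to the 40th percentile of their arrays (17.8), so no fold change is given. Ndufa9 read 804 and 759 in Ly6D-positive CLP, against 1553 and 1002 in Ly6D-negative CLP (-0.66 ± 0.230, adjusted p = 0.187). Uqcrh was at -1.03 ± 0.473, Ndufaf3 at -0.55 ± 0.227, Atp5d at 0.44 ± 0.195 and Ndufb10 at 0.45 ± 0.205, with adjusted p between 0.307 and 0.381. Array 2 of Ly6D-positive CLP differed from the other CLP arrays in its actin 3′ over 5′ log2 ratio, 3.81 compared with 2.10 to 2.51. Without it the median of the 88 genes was 0.09, and with it -0.06.

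Relative to young HSC, many more respiratory genes rose than fell in CLP. In Ly6D-positive CLP 25 of 88 rose and 4 fell, compared with 10.4% and 13.9% of all genes. In Ly6D-negative CLP 24 rose and 3 fell, compared with 9.55% and 14.9% of all genes. Changes were above 0 in 58 of the 88 genes in Ly6D-positive CLP (50.9% of all genes) and in 59 in Ly6D-negative CLP (49.9%), and below 0 in 30 (49.1%) and 29 (50.1%). An unadjusted p under 0.05 was found in 36 genes in Ly6D-positive CLP (35.4% of all genes) and in 40 in Ly6D-negative CLP (35.5%). Every CLP array lay above every young array in 38 genes for Ly6D-positive CLP (28.4% of all genes) and in 45 for Ly6D-negative CLP (26.6%), and below in 18 (30.0%) and 20 (31.0%). The medians over the 88 genes were 0.22 in Ly6D-positive and 0.27 in Ly6D-negative CLP, and those of all genes 0.0092 and -0.00086. Both comparisons use the same 3 young arrays. Of the genes that rose and have several measured probe sets, 14 of 16 kept the sign over them in Ly6D-positive and 15 of 17 in Ly6D-negative CLP. Cycling markers summed to 25732 to 30362 in Ly6D-positive CLP, against 17110 to 22753 in young HSC. In Ly6D-negative CLP the sum was 22001 to 25300, which overlapped with young HSC. Of the 12, Birc5 (1.08) and Mcm6 (0.66) rose in Ly6D-positive CLP (10.4% of all genes) and Mcm6 (0.82) in Ly6D-negative CLP (9.55%). T and NK markers summed to 749 to 1225 and 876 to 1060 in the 2 kinds of CLP, against 259 to 337 in young HSC. Red cell markers summed to 404 to 655 and 1105 to 1185, against 4903 to 6195. Neutrophil markers summed to 176 to 229 in Ly6D-positive CLP, against 1120 to 5521, and overlapped in Ly6D-negative CLP. Macrophage and mast cell sums overlapped with young HSC. All CLP arrays also had low Xist and high Eif2s3y, unlike the young HSC arrays. The part of these markers, Xist and Eif2s3y in the result was not tested. All CLP arrays had high hybridisation controls as well. All young HSC arrays had low ones. A block for their level could be estimated only from mutator array 1 and mid-aged wild-type array 1, against the other arrays of their groups. In the CLP arrays it cannot be told apart from cell type. With the level of those controls as a block, 20 respiratory genes rose and 2 fell in Ly6D-positive CLP (11.6% and 7.61% of all genes) and 19 rose and 2 fell in Ly6D-negative CLP (11.0% and 7.48%). Atp5g2, Atp5k, Ndufa12, Ndufv3 and Uqcr10 no longer passed in either. Ndufs7, Uqcr11, Ndufb1, Ndufs4 and Uqcrh were also lost in Ly6D-positive CLP, and Atp5d, Cox5a, Ndufaf8, Ndufs1 and Atp5j in Ly6D-negative CLP. In both kinds of CLP other respiratory genes passed only with the block.

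The largest rise was that of Cox6a2, the subunit VIa form known from heart and skeletal muscle. It read 717 and 444 in Ly6D-positive CLP and 988 and 605 in Ly6D-negative CLP, against 100.6, 78.4 and 77.8 in young HSC. The changes were 2.52 ± 0.366 (adjusted p = 0.000250) in Ly6D-positive and 2.97 ± 0.366 (adjusted p = 8.2e-05) in Ly6D-negative CLP. In the other HSC groups it stayed low, from 92.9 to 162 in mutator, 74.2 to 203 in mid-aged wild-type and 61.4 to 100.4 in old HSC, so every CLP array lay above every HSC array. Its paralog Cox6a1 read 7441 and 6514 in Ly6D-positive and 6340 and 6777 in Ly6D-negative CLP, against 2805, 2678 and 2762 in young HSC. It rose by 1.34 ± 0.163 in the Ly6D-positive and 1.25 ± 0.163 in the Ly6D-negative cells, with a second probe set at 1.51 and 1.48. Cox6a1 did not separate CLP from all HSC, since the 32-week HSC arrays held 6248 to 9606 units. Cox5a rose by 1.14 ± 0.228 in Ly6D-positive and 0.84 ± 0.228 in Ly6D-negative CLP, and Cox7a2 by 0.94 ± 0.180 and 1.01 ± 0.180. Cox4i1 did not pass, at 0.28 ± 0.232 and 0.43 ± 0.232.

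**Figure D4:**
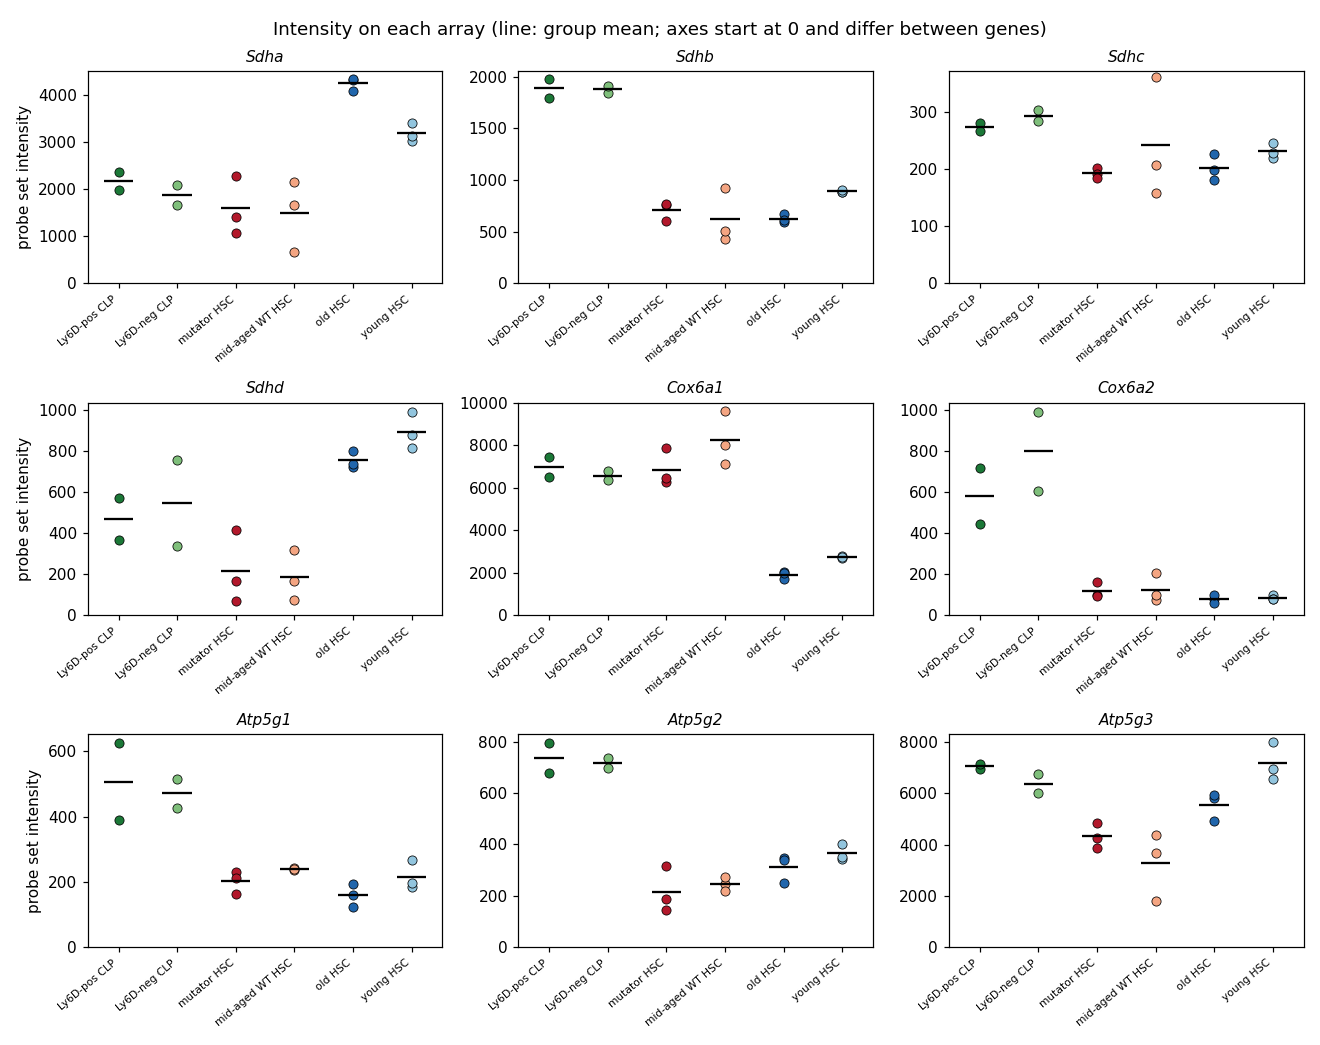
Intensity on each array (points) with the group mean (line) for the 4 genes of complex II, the paralogs Cox6a1 and Cox6a2, and the 3 genes of subunit c, with an axis from 0 for each gene. Cox6a2 lies between 444 and 988 on the CLP arrays and at 203 or below on HSC arrays, and Sdhb lies between 1794 and 1981 on the CLP arrays and at 923 or below elsewhere.

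The other tissue-specific paralogs, apart from Cox8c, stayed dim in every group. Cox4i2, an oxygen-regulated form of subunit IV, lay between 13.5 and 20.4 on the 16 arrays, Cox7a1, the muscle form of subunit VIIa, between 9.12 and 23.9, and Cox8b between 14.9 and 26.7. The range of the 40th percentile of the arrays was 16.6 to 21.3. Cox8c and Cox6b2 were brighter but did not pass in any comparison, with 94.9 to 233 and 24.6 to 69.9 units. The hypoxia-induced Ndufa4l2 lay between 24.4 and 44.1. Their common partners Cox8a and Cox6b1 were measured between 314 and 493 and between 2308 and 5809.

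The 3 genes of subunit c of ATP synthase did not move together in CLP. Atp5g1 read 627 and 388 in Ly6D-positive and 517 and 427 in Ly6D-negative CLP, against 269, 183 and 195 in young HSC, and rose by 1.16 ± 0.240 and 1.09 ± 0.240. Atp5g2 read 796 and 677 in Ly6D-positive and 738 and 698 in Ly6D-negative CLP, against 403, 344 and 353 in young HSC, and rose by 0.97 ± 0.254 and 0.94 ± 0.254. Atp5g3 read 6945 and 7154 in Ly6D-positive and 6769 and 6001 in Ly6D-negative CLP, against 7991, 6576 and 6961 in young HSC. Its changes were -0.02 ± 0.286 and -0.17 ± 0.286, and both groups overlapped with young HSC. The window of Atp5g2 printed above holds the NRF1 letters and that of Atp5g3 the ESRRA letters, while the window of Atp5g1, searched but not printed, held no match. Atp5d, Atp5k and Atp5j2, of the central stalk and the membrane part, rose by 1.17 ± 0.178, 1.17 ± 0.243 and 0.77 ± 0.208 in Ly6D-positive CLP. The same genes rose by 0.74 ± 0.178, 0.96 ± 0.243 and 1.01 ± 0.208 in Ly6D-negative CLP. Atp5j, of the peripheral stalk, fell in Ly6D-negative CLP (-0.76 ± 0.243). Atp5a1 (-0.41 ± 0.192 and -0.31 ± 0.192) and Atp5b (-0.35 ± 0.556 and 0.02 ± 0.556) passed in neither.

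In complex II, Sdhb was the one subunit to pass. It read 1794 and 1981 in Ly6D-positive and 1845 and 1910 in Ly6D-negative CLP, against 886, 889 and 902 in young HSC. The rises were 1.07 ± 0.246 (adjusted p = 0.00650) and 1.06 ± 0.246 (adjusted p = 0.00700). All 4 CLP arrays were higher than every HSC array, which held 426 to 923. Sdha stood at -0.55 ± 0.395 and -0.77 ± 0.395, Sdhc at 0.23 ± 0.242 and 0.33 ± 0.242, and Sdhd at -0.94 ± 0.600 and -0.79 ± 0.600.

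Complex I gave 12 of 33 rises in Ly6D-positive and 10 of 33 in Ly6D-negative CLP. Ndufa7, an accessory subunit of the matrix arm, read 1414 and 713 in Ly6D-positive and 1330 and 638 in Ly6D-negative CLP, against 427, 321 and 314 in young HSC. It rose by 1.48 ± 0.327 and 1.36 ± 0.327, and its 5 probe sets ran from 0.92 to 1.48 and from 0.77 to 1.46. Ndufa6 rose by 1.09 ± 0.205 and 1.34 ± 0.205, Ndufb10 by 1.17 ± 0.187 and 0.72 ± 0.187, and Ndufs7 by 0.89 ± 0.192 and 1.21 ± 0.192. Ndufa10 rose by 1.06 ± 0.236 and 1.36 ± 0.236, but its second probe set stood at -0.02 and -0.14. Ndufb1 also passed in Ly6D-positive CLP, with 78.8 and 28.8 units, against 17.6, 17.3 and 16.6 in young HSC. Young HSC lay close to the 40th percentile of their arrays (16.7 to 17.4), so no fold change is given, and the call was lost without Ly6D-positive array 1, with only those groups fitted and with the hybridisation controls as a block. In Ly6D-positive CLP Ndufs4 fell (-1.65 ± 0.544), with probe sets from -1.65 to 0.01, and so did Ndufa9 (-1.19 ± 0.210). In Ly6D-negative CLP Ndufs1 fell (-0.91 ± 0.312, adjusted p = 0.0498). Ndufv1 was at 0.24 ± 0.275 and 0.47 ± 0.275. The assembly factors Ndufaf3 (1.10 ± 0.207) and Ndufaf8 (0.85 ± 0.198) rose in Ly6D-negative CLP, and no assembly factor passed in Ly6D-positive CLP.

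In complex III, Uqcrq, a small subunit near the quinone site, read 1065 and 501 in Ly6D-positive and 983 and 838 in Ly6D-negative CLP, against 334, 254 and 240.5 in young HSC. It rose by 1.37 ± 0.331 and 1.67 ± 0.331. Uqcr10 rose by 1.09 ± 0.265 and 1.16 ± 0.265, and Uqcr11 in Ly6D-positive CLP by 0.97 ± 0.319. Uqcrb read 6982 and 8569 in Ly6D-positive and 8750 and 7169 in Ly6D-negative CLP, against 13713, 12202 and 12444 in young HSC, and fell in both (-0.72 ± 0.180 and -0.69 ± 0.180). Uqcrh fell in Ly6D-positive CLP (-1.38 ± 0.432). Cyc1 (0.54 ± 0.234 and 0.22 ± 0.234) and Uqcrfs1 (-0.74 ± 0.357 and -0.45 ± 0.357) passed in neither. Of the 25 genes that rose in Ly6D-positive CLP 10 kept the call whichever array was left out, and 13 of the 24 in Ly6D-negative CLP. Of those that fell, 1 of 4 (Ndufa9) and 0 of 3 did. Without array 1 of Ly6D-positive CLP the number that rose was 12, compared with 8.16% of all genes in that fit.

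**Figure D5:**
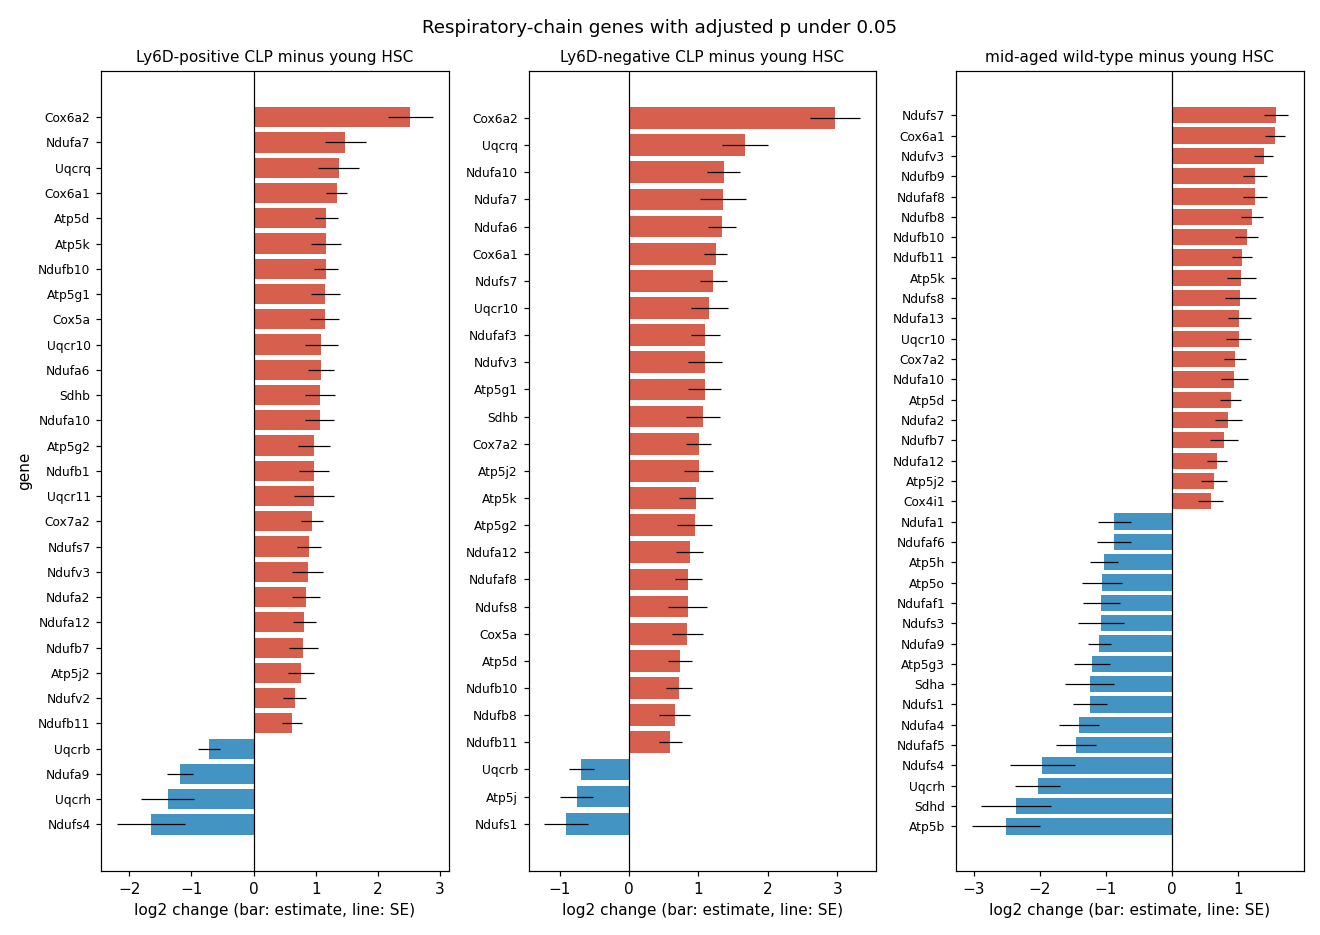
Log2 change (bar) with its SE (line) of the respiratory genes with adjusted p under 0.05 in Ly6D-positive CLP, Ly6D-negative CLP and mid-aged wild-type HSC, each against young HSC. Rises outnumber falls by 25 to 4 and 24 to 3 in the CLP panels and by 20 to 16 in mid-aged wild-type HSC, and Cox6a2 has the longest bar in both CLP panels. The bar of Ndufb1 is set against young HSC close to background.

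Neighbouring steps of mitochondrial metabolism were counted in lists of genes outside the symbol rule. No gene of these lists passed in old against young HSC or in mutator against mid-aged wild-type HSC (1.31% and 0.00% of all genes). Against young HSC, 10.4% of all genes rose and 13.9% fell in Ly6D-positive CLP, and 9.55% and 14.9% in Ly6D-negative CLP. In mid-aged wild-type against young HSC 6.42% of all genes rose and 17.7% fell. Of 14 genes of cytochrome c and electron entry to ubiquinone, cytochrome c itself (Cycs) rose in Ly6D-positive (1.22 ± 0.226) and Ly6D-negative CLP (0.87 ± 0.226), with means of 6246 and 4952 units, against 2673 in young HSC. Coq6 rose and Etfb fell in Ly6D-positive CLP (0.95 and -1.31), and Coq3 fell in Ly6D-negative CLP (-1.51). In mid-aged wild-type against young HSC Gpd2 rose (0.68) and Etfa and Etfb fell (-1.86 and -1.17). Of 21 measured genes of pyruvate dehydrogenase and the citric acid cycle, 3 rose in either kind of CLP, namely Fh1, Idh3g and Mdh2, at 0.95, 0.83 and 0.54 in Ly6D-positive and 0.99, 0.95 and 0.58 in Ly6D-negative CLP. In that list 0 fell in Ly6D-positive and 2 in Ly6D-negative CLP (Idh3a, -1.02, and Sucla2, -0.87). In mid-aged wild-type against young HSC 2 of the 21 rose (Idh3g and Idh3b) and 7 fell, Idh2 (-2.48) and Dld (-2.45) the most.

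Of 29 measured assembly factors outside the rule, 1 rose and 2 fell in Ly6D-positive CLP (10.4% and 13.9% of all genes). In Ly6D-negative CLP 2 rose and 4 fell (9.55% and 14.9%). Of 28 tested, 2 rose and 2 fell in mid-aged wild-type HSC against young HSC (6.42% and 17.7%). The same shares of all genes apply to the regulators below. Coa5 (-0.81 and -0.76) and Timmdc1 (-0.79 and -1.05) fell in both kinds of CLP. Among 15 regulators of respiratory genes, 3 rose and 2 fell in Ly6D-positive CLP, and 1 rose and 3 fell in Ly6D-negative CLP. Myc rose in Ly6D-positive and Ly6D-negative CLP (1.85 ± 0.245 and 1.48 ± 0.245). Gabpa (-0.95) and Yy1 (-0.72), whose letters were searched above, fell in Ly6D-positive CLP, where Polrmt (2.09), the mitochondrial RNA polymerase, and Sp1 (1.47) rose. Tfam (-0.73), Tfb1m (-1.74) and Tfb2m (-1.41), which act in mitochondrial transcription, fell in Ly6D-negative CLP. Tfb1m was the one regulator to pass between the CLP groups, with a mean of 391 units in Ly6D-positive and 86.4 in Ly6D-negative CLP (2.02). Between those groups 2.68% of all genes passed. In mid-aged wild-type HSC against young HSC 2 regulators rose (Sp1 and Ppargc1b) and 4 fell (Gabpa, Hif1a, Tfam and Yy1). Of the genes in mitochondrial DNA only ND5, of complex I, was matched. It averaged 7268 units in Ly6D-positive and 6921 in Ly6D-negative CLP, against 3689 in young HSC (0.98 ± 0.321, adjusted p = 0.0405, and 0.91 ± 0.321, adjusted p = 0.0554). In mutator HSC it averaged 3109 units, against 3652 in mid-aged wild-type HSC. Old HSC averaged 4696, against 3689 in young HSC, and neither difference passed.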

How the data were processed

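RNA was extracted with a micro RNA kit and labelled as biotinylated cRNA by the standard Affymetrix protocol, per the labels. The deposited values are probe set intensities on a linear scale (45101 probe sets, highest 32952). For their summary and normalization, no method is given in the sources used here. Depth does not apply, and the 2 or 3 arrays a group limit precision.

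Intensities were used as log2(intensity + 16). Probe sets with several symbols were left out (10 for these genes), and the probe set with the highest mean stood for a gene. Of the 91 genes 51 had over 1 probe set, and 54 were represented by a type that can match related transcripts, so closely similar paralogs may share signal. A gene was tested if it exceeded the 40th percentile of its array on 3 of 12 HSC arrays, or 2 of all 16. Group means were fitted with limma 3.58.1 (R 4.3.3; lmFit, eBayes, Benjamini-Hochberg over all genes tested). HSC comparisons used the 12-array fit and CLP comparisons all 16. On simulated data with 200 genes changed by 2 on the log2 scale, 92.0% were recovered for old against young HSC. The share was 79.5% for Ly6D-positive CLP against young HSC and 73.0% for the difference of effects. The 87 respiratory genes ran only from -0.62 to 0.41 in old against young HSC. Recovery of genes at those smaller values was not tested.

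Values are named for at most 4 genes in each direction and complex that passed without overlap, for the 3 of lowest p where none passed, and for complex II, core subunits and paralog sets. Other lists give up to 4 each. Genes outside this rule were named after their values were seen. The genes, the lists and the rule were chosen with earlier results of these data known. Alternatives were quantile normalization, median centring, filters, pseudocounts, the mean of probe sets, other variance settings, the replicate number as a block, other sets of arrays and each array left out. Same-numbered replicates deviated together in part. Their correlations were 0.51, 0.42 and -0.01 for old with young HSC and 0.33, 0.08 and -0.06 for mutator with mid-aged wild-type HSC. Since not all did, the numbers were not taken as pairs. p-values measure the spread between these arrays.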

Additional observations from a re-analysis of the deposited data

How the results depend on the processing

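Each of the 387 recalculated counts and medians was compared with its main value, and 360 stayed within 1.5 times of the count or within the replicate spread of the median. The 360 include counts of 0 that stayed 0. That spread (0.145) is larger than the main medians in mutator against mid-aged wild-type HSC (-0.10) and between the CLP groups (-0.06). A change of sign of those medians could therefore still be scored as unchanged. In old against young HSC the counts of 0 became 1 higher and 5 lower with only those groups fitted (4.71% and 2.66% of all genes). The median became -0.12 without old array 2 and young array 1. The change of Atp5b there reversed to -0.0018 (quantile normalization), to -0.041 (without old array 1), to -0.021 (without young array 1) and to -0.016 without old array 2 and young array 1, and over the arrays left out it ran from -0.041 to 0.039. Leaving out each array gave medians of -0.34 to -0.20 in that comparison, and -0.20 to -0.04 in mutator against mid-aged wild-type HSC, where no respiratory gene passed in any setting. In mid-aged wild-type against young HSC the mean of all probe sets gave 13 higher (4.67% of all genes) and a median of 0.0025. Leaving out each array gave 17 to 24 higher and 10 to 19 lower. Of all genes 3.89% to 8.56% were higher and 11.3% to 22.8% lower in those fits. For the difference of effects the count of higher genes was 0 to 1 over the arrays left out (1 was Sdhb). Between the CLP groups it was 0 to 1 as well (Ndufaf4 without Ly6D-positive array 1, Ndufb1 without array 2), and the median ran from -0.16 to 0.091. In Ly6D-positive CLP against young HSC, 4 lower genes became 2 with the mean of probe sets, the hybridisation controls as a block or young arrays 2 and 3 counted as 1, and 8 with only those groups fitted. Of all genes 13.0%, 7.61%, 10.5% and 17.6% were lower in those fits, in that order. Leaving out each array gave 12 to 25 higher, 2 to 4 lower and medians of 0.092 to 0.38. In Ly6D-negative CLP the 3 lower genes became 1 with a pseudocount of 1, with the replicate block or with young arrays 2 and 3 counted as 1, and 0 to 6 as each array was left out. Ndufb8 reversed there to -0.21 with the mean of its probe sets. With the replicate number as a block 21 rose and 15 fell in mid-aged wild-type against young HSC (7.04% and 18.1% of all genes). The same block gave 26 and 3 in Ly6D-positive CLP (10.4% and 13.2%) and 26 and 1 in Ly6D-negative CLP (9.70% and 13.8%). The causes of these changes were not tested. Dim genes limit what can be said of tissue-specific paralogs.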
